A study of Mus musculus with 6 samples.

Results

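The 10 B lineage transcription factor genes Pax5, Ebf1, Tcf3, Ikzf1, Ikzf3, Foxo1, Bach2, Irf4, Irf8 and Bcl6 were followed on expression arrays of transformed mouse B cell precursors with and without Etv5. They were found by their gene symbol in the platform annotation, and all 10 were measured, out of 19938 genes with a probe set of their own. Each was represented by 1 probe set, so no choice among probe sets had to be made. The cells were BCR-ABL1 transformed pre-B cells of 129SvEv mice, given as a model of BCR-ABL1-driven acute lymphoblastic leukemia, so both genotypes carried the BCR-ABL1 fusion kinase. One group of 3 samples was labelled ETV5 WT (wild type) and the other group of 3 was labelled ETV5 KO (knockout), and Etv5 encodes an ETS-family transcription factor. The sources used here give neither the age of the mice nor the design of the knockout allele nor the way BCR-ABL1 was introduced. They also leave unsaid whether samples of one genotype were separate animals or cultures, so the p-values cover the spread between these samples only, and that spread may be technical.

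B cell development is built by a layered network of transcription factors. The E protein encoded by Tcf3 and the early B cell factor Ebf1 switch on the genes of the pre-B cell receptor, Foxo1 works with them and drives recombination-activating and interleukin 7 receptor genes, and Pax5 then commits the cell to the B lineage by activating B cell genes and silencing those of other lineages. Ikaros (Ikzf1) and its relative Aiolos (Ikzf3) restrain proliferation at the pre-B stage, and Irf4 and Irf8 are related interferon regulatory factors that act there together and drive light chain rearrangement. Bach2 and Bcl6 are transcriptional repressors that act on overlapping targets, Bcl6 protecting pre-B and leukemia cells from checkpoint genes such as Cdkn2a. In human acute lymphoblastic leukemia, IKZF1, PAX5 and EBF1 are frequent targets of deletion.

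The promoters of 4 of these genes are shown because they bear on the comparison: Irf4, Pax5 and Irf8 differed between the genotypes, and Bach2, which did not pass the test, held a match to an ETS motif close to its start. Each is the stretch of 250 bases upstream of the start of the gene, from RefSeq on GRCm38.p6, at chr13:30748983-30749232 (plus strand) for Irf4, chr4:44710695-44710944 (minus strand) for Pax5, chr8:120736108-120736357 (plus strand) for Irf8 and chr4:32417185-32417434 (plus strand) for Bach2. Capitals mark a match on either strand to any of the 7 motifs searched, which are listed after the sequences, and a window in lower case throughout held none.
Irf4 promoter: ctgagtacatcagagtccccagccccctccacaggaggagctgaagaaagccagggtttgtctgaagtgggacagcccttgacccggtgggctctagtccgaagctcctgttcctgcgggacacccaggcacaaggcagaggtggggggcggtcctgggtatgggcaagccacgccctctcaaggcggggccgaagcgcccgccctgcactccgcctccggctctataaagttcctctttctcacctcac
Pax5 promoter: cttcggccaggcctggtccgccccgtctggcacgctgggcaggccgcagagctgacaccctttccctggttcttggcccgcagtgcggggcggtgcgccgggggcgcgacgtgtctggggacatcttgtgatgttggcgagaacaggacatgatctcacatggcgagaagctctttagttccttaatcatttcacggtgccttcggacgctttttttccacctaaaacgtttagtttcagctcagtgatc
Irf8 promoter: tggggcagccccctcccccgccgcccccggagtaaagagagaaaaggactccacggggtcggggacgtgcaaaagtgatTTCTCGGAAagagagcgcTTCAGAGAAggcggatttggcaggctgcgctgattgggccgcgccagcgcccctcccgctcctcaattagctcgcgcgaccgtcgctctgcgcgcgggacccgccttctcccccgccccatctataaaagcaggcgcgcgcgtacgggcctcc
Bach2 promoter: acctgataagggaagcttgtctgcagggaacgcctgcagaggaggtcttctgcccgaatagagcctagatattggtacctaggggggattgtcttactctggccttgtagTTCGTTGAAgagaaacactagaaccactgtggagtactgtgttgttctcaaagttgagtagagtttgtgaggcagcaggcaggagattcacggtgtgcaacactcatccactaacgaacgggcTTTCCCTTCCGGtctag

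The motifs were CCGGAA (the ETS core with its preferred flank), AGGAAG (the PEA3 form of the ETS core), GGAA and GAAA with 2 bases between them (the composite of ETS and interferon regulatory factors), GAAA and GAAA with 2 bases between them (interferon regulatory factors), CAGGTG (E proteins), TCCC and GGGA with 2 bases between them (EBF), and TTC and GAA with 3 bases between them (STAT factors). All were searched on both strands. RefSeq windows matched 9 of the 10 genes, all but Ikzf3, with 13 windows in all. CCGGAA was found in 3 of the 13 windows, those of Tcf3, Bach2 and 1 of a pair for Bcl6, beside 12% of all 32851 windows of this length. The Irf4 and Pax5 windows held no match to any of the 7 motifs, which says only that these letters are not in these windows. In Bach2, CCGGAA began 11 bases before the start and overlapped a match to the ETS and interferon regulatory factor composite, which 2.30% of all windows held. The Irf8 window held 2 matches to the STAT motif, at 171 and 153 bases before the start, and 7.02% of all windows held that motif. A second window of Bcl6 held 3 matches to the same STAT motif, 1 of which overlapped its CCGGAA match. The remaining matches were AGGAAG in Ikzf1 and in both Bcl6 windows (29.5% of all windows), the interferon regulatory factor motif in Ebf1 (2.98%), CAGGTG in a second window of Irf8 (17.2%), the EBF motif in Foxo1 (0.779%), the composite in the second Bcl6 window, and the STAT motif in Bach2 and in the first window of Bcl6. A match describes the letters and is not a measured site of binding.

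The 6 arrays gave log2 signals of 35556 probe sets, with array medians between 7.79 and 7.84. Of the 7 markers of B cell precursors, 6 were measured (Cd79a, Cd79b, Vpreb1, Igll1, Rag1 and Il7r), with mean log2 signals of 9.39 to 14.27, and none of the 6 passed the test between the genotypes. Summed on the linear scale, these 6 markers lay at 58214 to 59444 in the wild-type arrays and 59642 to 62198 in the knockout arrays. The 6 measured T cell markers summed to 875 to 956 and 861 to 945, the 8 myeloid markers to 1280 to 1376 and 1252 to 1413, and the 3 erythroid markers to 529 to 582 and 533 to 537. Of these T cell, myeloid and erythroid markers, Itgam rose (log2 change 0.60, limma adjusted p = 0.0235), a call kept without wild-type sample 2 (0.0372) or knockout sample 3 (0.041) and lost in the other 4 fits with 1 array left out (0.0826 to 0.112). No other of these markers passed. Arrays of this kind give no true zero, so no marker could be called absent, and the part of other cells in the results was not tested. In bulk samples a smaller number of cells of one type and less RNA per cell cannot be told apart. Etv5 has 2 probe sets, 1 lower (log2 change -0.43, limma adjusted p = 0.0467, and 0.0712 to 0.18 with each array left out in turn) and 1 not past the threshold (0.28, adjusted p = 0.13). The lower one went from a mean of 9.37 in wild type to 8.93 in knockout. The other was brighter, at 11.49 and 11.76. The sources used here do not say where they lie relative to the deleted part, so these arrays do not by themselves establish the genotype labels.

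Of the 10 factors, Irf4, Pax5 and Ikzf3 rose in the knockout, Irf8 fell, and Ebf1, Tcf3, Ikzf1, Foxo1, Bach2 and Bcl6 did not pass the test. All 4 changes were small, between 1.27-fold and 1.43-fold. The test was limma with Benjamini-Hochberg adjustment over all 35556 probe sets at a threshold of 0.05, and it called 3.08% of the probe sets and 4.43% of the 19938 genes, 2.42% as higher and 2.01% as lower. The members' share was thus 4 of 10 beside a background of 4.43%, with the caveat that these genes were chosen with earlier results of the same arrays known. The factors also varied little, with a median SD of 0.054 in wild-type and 0.049 in knockout samples. Over all probe sets these medians were 0.087 and 0.098, so the background is not matched to the factors in spread. Knockout and wild-type values did not overlap in 6 of the 10 factors, the 4 called ones with Tcf3 and Foxo1, beside 20.5% of all genes. The median log2 change over the 10 factors was 0.11, and over all genes it was -0.0039. The number of called factors fell to 1 in each of the fits that left out the first or second wild-type sample or the third knockout sample, and to 2 in each of those without knockout sample 1 or knockout sample 2. It was 3 without wild-type sample 3.

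**Figure D1:**
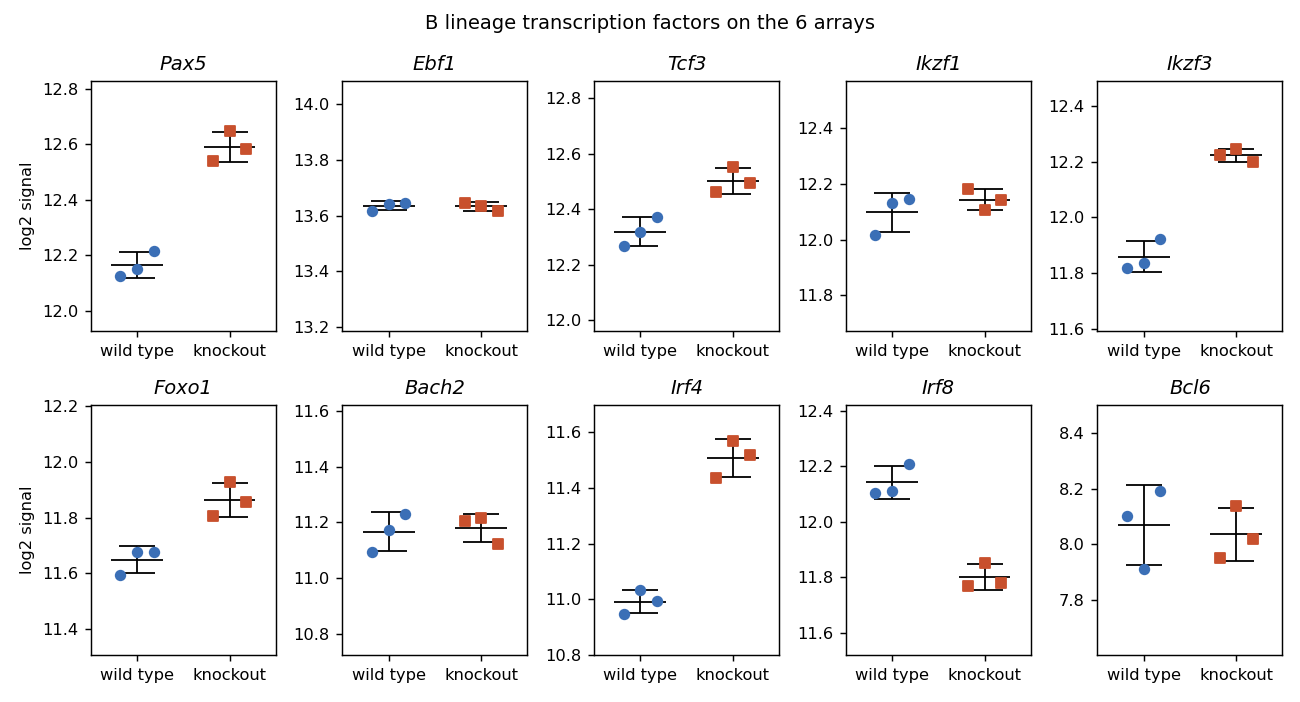
The log2 signal of each of the 10 factors (vertical axes, each spanning the same number of log2 units around its own mean) in the 3 wild-type samples (circles) and the 3 knockout samples (squares), with samples 1 to 3 from left to right and the mean and SD as lines. The knockout values of Pax5, Ikzf3 and Irf4 all lie above the wild-type values, those of Irf8 all lie below, and those of Ebf1, Ikzf1, Bach2 and Bcl6 overlap.

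Among the factors that establish the lineage, Ebf1, the pioneer factor of B cell specification, was at 13.62, 13.64 and 13.65 in wild-type samples 1 to 3 and at 13.65, 13.63 and 13.62 in knockout samples 1 to 3 (log2 signal). These 6 values overlapped completely and were among the tightest of the factors, with an SD of 0.016 among wild-type and 0.015 among knockout samples (n = 3 each). The log2 difference was -0.0025 with a 95% interval from -0.11 to 0.11. Tcf3, which encodes the E proteins that pair with Ebf1, gave 12.27, 12.32 and 12.37 in wild-type samples and 12.46, 12.55 and 12.50 in knockout samples. The groups did not overlap, but the log2 difference of 0.18 (95% interval 0.05 to 0.32) did not pass limma with adjustment (adjusted p = 0.232). Foxo1, the forkhead factor that links growth factor signalling to recombination, gave 11.59, 11.68 and 11.68 in wild-type samples and 11.81, 11.93 and 11.85 in knockout samples. Its groups were likewise apart, with a log2 difference of 0.21 (95% interval 0.08 to 0.35, limma adjusted p = 0.166). Foxo1 passed in 1 alternative, a variance trend with robust settings (limma adjusted p = 0.0469).

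Pax5, the commitment factor, gave 12.13, 12.15 and 12.22 in wild-type samples 1 to 3 and 12.54, 12.65 and 12.58 in knockout samples 1 to 3. The lowest knockout value lay 0.32 log2 units above the highest wild-type value. The mean rose from 12.16 ± 0.046 to 12.59 ± 0.055 (SD, n = 3 each), a rise of 1.34-fold (log2 change 0.43 ± 0.055, SE; limma adjusted p = 0.0127). The call was lost without wild-type sample 1, 2 or knockout sample 3 (limma adjusted p = 0.0751, 0.0696 and 0.0658), while the log2 change stayed between 0.40 and 0.45 in all 6 fits that left out 1 array.

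Of the Ikaros family, Ikzf3 passed the test and Ikzf1 did not. Ikzf1 gave 12.02, 12.13 and 12.14 in wild-type samples and 12.18, 12.11 and 12.14 in knockout samples, with overlapping groups and a log2 difference of 0.04 (95% interval -0.09 to 0.18). Ikzf3, its relative, which takes over at the later pre-B stages, gave 11.82, 11.83 and 11.92 in wild-type samples and 12.22, 12.24 and 12.20 in knockout samples. All 3 knockout values of Ikzf3 lay above the wild-type ones, by 0.28 log2 units at the nearest. Ikzf3 rose 1.29-fold, from 11.86 ± 0.056 to 12.22 ± 0.023 (SD, n = 3; log2 change 0.36 ± 0.052, SE; limma adjusted p = 0.0182). This call held with wild-type sample 3 left out (limma adjusted p = 0.0367). It was lost without wild-type sample 1 (0.10), wild-type sample 2 (0.0971), knockout sample 1 (0.062), knockout sample 2 (0.0704) or knockout sample 3 (0.0813). Whether the change of Ikzf3 exceeds that of Ikzf1 was not tested.

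The interferon regulatory factors moved in opposite directions. Irf4, which is needed for light chain rearrangement and later for plasma cells, gave 10.95, 11.03 and 10.995 in wild-type samples 1 to 3 and 11.44, 11.57 and 11.52 in knockout samples 1 to 3. The gap between the groups was 0.40 log2 units, wider than for any other of the 10 factors. Irf4 rose 1.43-fold, from 10.99 ± 0.043 to 11.51 ± 0.067 (SD, n = 3; log2 change 0.52 ± 0.058, SE; limma adjusted p = 0.00689), and it kept its call in each of the 6 fits that left out 1 array (adjusted p 0.0157 to 0.0462). Irf8, a partner of Irf4 in pre-B cells that also directs myeloid and dendritic development, gave 12.10, 12.11 and 12.21 in wild-type samples and 11.77, 11.85 and 11.78 in knockout samples. Every knockout value of Irf8 lay below every wild-type value, by 0.25 log2 units at the nearest. Irf8 fell by 0.34 ± 0.056 (SE) on the log2 scale, 1.27-fold, from 12.14 ± 0.059 to 11.80 ± 0.046 (SD, n = 3; limma adjusted p = 0.0315). Its call was lost in each of the 6 fits that left out 1 array: without wild-type samples 1, 2 and 3 the limma adjusted p was 0.111, 0.112 and 0.0937, and without knockout samples 1, 2 and 3 it was 0.0973, 0.0662 and 0.146. The log2 change of Irf8 stayed between -0.37 and -0.31 in these fits.

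**Figure D2:**
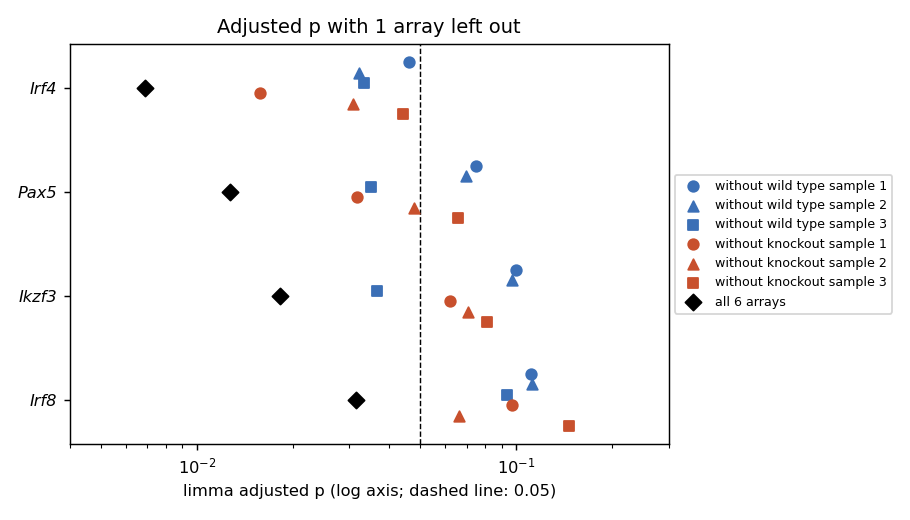
The limma adjusted p (horizontal log axis) of the 4 factors called with all 6 arrays (diamonds) and in the 6 fits that each left out 1 array (circles, triangles and squares for samples 1, 2 and 3; blue for wild type, red for knockout), with the threshold of 0.05 dashed. All points of Irf4 lie below the threshold, and with 1 array left out all points of Irf8 lie above it.

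Neither repressor passed the test. Bach2, which delays plasma cell differentiation, gave 11.09, 11.17 and 11.23 in wild-type samples and 11.21, 11.21 and 11.12 in knockout samples, a log2 difference of 0.01 (95% interval -0.13 to 0.16). Bcl6, the dimmest of the 10 factors, gave 8.10, 7.91 and 8.19 in wild-type samples and 7.95, 8.14 and 8.02 in knockout samples. These values of Bcl6 lay near the array medians of 7.79 to 7.84, where differences are compressed, so a change could be missed. Its groups overlapped, its spread was the widest of the 10 factors (SD 0.14 and 0.095, n = 3), and the log2 difference was -0.03 (95% interval -0.25 to 0.19). Bcl6 lies on chromosome 16 like Etv5, with 18 protein-coding genes between them in the GRCm38.p6 gene table. Of the 17 measured ones, Fetub rose (1.32, limma adjusted p = 0.00951) and St6gal1 fell (-0.54, adjusted p = 0.00973), both named because they were the ones that passed. Fetub lost its call without knockout sample 2 or 3 (0.0505 and 0.0501), and St6gal1 without wild-type sample 1 (0.0549) or knockout sample 3 (0.0538).

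**Figure D3:**
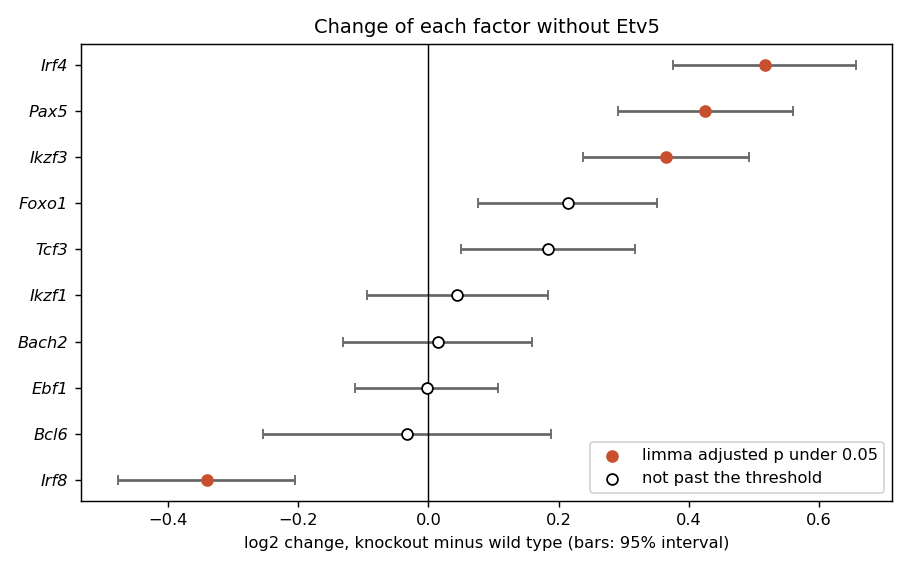
The log2 change from wild type to knockout of each of the 10 factors (points) with its 95% interval (bars), filled where the limma adjusted p was under 0.05. Irf4, Pax5 and Ikzf3 lie to the right of 0 and Irf8 to the left, and the intervals of Ikzf1, Bach2, Ebf1 and Bcl6 span 0.

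Within a genotype the factors shared part of their spread. Wild-type sample 1 had the lowest of the 3 wild-type values in 9 of the 10 factors, and wild-type sample 3 had the highest in 9. Over all genes, sample 1 was the lowest in 40.2% and sample 3 the highest in 39.6%. Among the knockout samples, sample 2 was the highest in 8 of the 10 factors and in 54.8% of all genes. The median deviation of the factors from the mean of their genotype was -0.042, 0.0026 and 0.052 log2 units in wild-type samples 1 to 3 and -0.036, 0.052 and -0.012 in knockout samples 1 to 3. The upper quartile of all probe sets was 10.15, 10.15 and 10.21 in wild-type samples 1 to 3. In knockout samples 1 to 3 it was 10.11, 10.24 and 10.18. Bright probe sets thus differed between arrays as a whole, and the part of this in the spread of the factors was not tested.

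**Figure D4:**
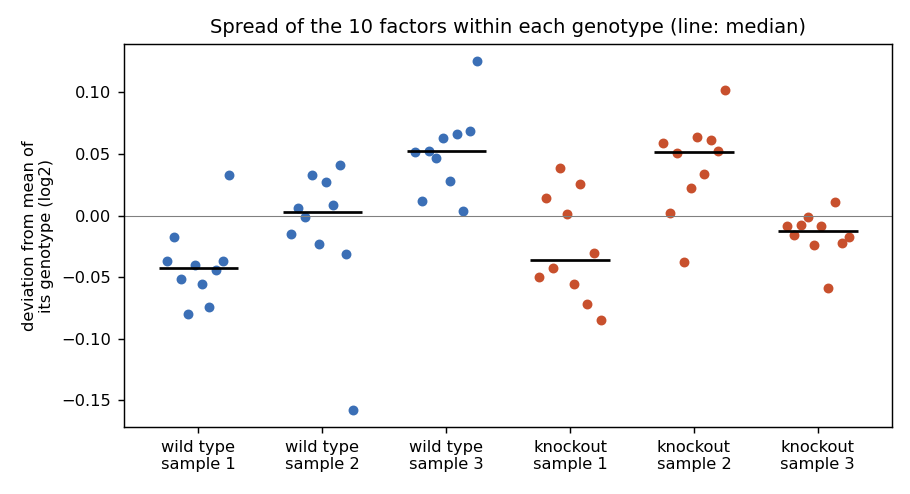
Deviation of each of the 10 factors (points) from the mean of its genotype, in log2 units, in each of the 6 samples, with the median as a line. Wild-type sample 1 and knockout sample 1 lie mostly below 0, and wild-type sample 3 and knockout sample 2 mostly above.

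The genes whose 6 values were closest to those of a called factor, by the Euclidean distance between values centred on the mean of each gene, were picked from 17136 genes. For Irf4 they were Txnip (distance 0.054, Pearson's r = 0.997), Klc1 (0.066) and Eml6 (0.076). For Pax5 they were Gnb4 (0.048, r = 0.997), Myo5a (0.057) and Tpst1 (0.060). For Ikzf3 they were Scn4b (0.045), Dennd4a (0.048) and Dtnbp1 (0.063), and for Irf8 they were Entpd5 (0.042), Adssl1 (0.057) and Vcl (0.059). With 6 arrays and so many genes, close profiles arise in number, and these are a description only. Txnip, which restrains glucose uptake and stands among the reported Foxo1 targets, rose by 0.53 (limma adjusted p = 0.00476).

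Paralogs of the 10 factors gave no call, and 1 of the Id proteins rose. Of 22 listed paralogs 21 were measured, and none passed limma with adjustment, beside 4.43% of all genes. With so few genes, 0 calls lie near that share and are not a result about paralogs. At an unadjusted limma p under 0.05, 1 was higher and 0 lower, a threshold that 13.4% of all genes met in either direction. That gene, Irf5, which acts in Toll-like receptor signalling, differed by 0.34 (10.31 ± 0.053 against 10.65 ± 0.094, SD, n = 3; limma adjusted p = 0.0591). Irf9, a subunit of the interferon-activated complex, differed by 0.17 (adjusted p = 0.537). Of the Id proteins, which block E proteins such as that of Tcf3, Id2 rose by 0.46 ± 0.076 (SE; limma adjusted p = 0.0325), Id3 differed by 0.41 (adjusted p = 0.0625), and Id1 and Id4 did not pass, at 0.08 and -0.02. Id2 kept its call in 1 of the 6 fits that left out 1 array, that without knockout sample 1 (limma adjusted p = 0.0399), and the adjusted p of the other fits ran from 0.0723 to 0.136. Irf5 and Id3 passed in 8 of 15 alternative fits each, among them quantile normalization (limma adjusted p = 0.0186 and 0.0377).

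Of 16 measured partners and other factors of B lineage cells, 2 rose, 1 fell and 13 did not pass, with a median log2 change of 0.14. Over all genes, 2.42% were called higher and 2.01% lower. This list and those that follow were chosen with earlier results of the same arrays known, so their counts are a description only. Spib, an ETS factor that pairs with Irf4 and Irf8 on composite sites, increased from a mean of 11.22 ± 0.078 to 11.97 ± 0.061 (SD, n = 3), or 0.75 in log2 units (limma adjusted p = 0.00255). Zeb2, a zinc finger repressor, rose from 10.70 ± 0.075 to 11.27 ± 0.039 (log2 change 0.57, adjusted p = 0.00527). Ets1, the founding ETS factor, fell by 0.43 ± 0.061 (SE) on the log2 scale (limma adjusted p = 0.0179). Spib and Zeb2 kept their call with any 1 array left out (highest adjusted p 0.0192 and 0.0332), whereas Ets1 kept it without knockout sample 2 (limma adjusted p = 0.0241) and lost it in the other 5 such fits (0.0617 to 0.0919).

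Of 11 measured factors of other lineages or fates, 0 rose, 2 fell and 9 did not pass, with a median log2 change of -0.012. The shares over all genes were 2.42% higher and 2.01% lower. Both that fell act in plasma cells. Xbp1, which builds the secretory apparatus, went down from a mean of 13.01 ± 0.029 to 12.47 ± 0.060 (SD, n = 3), or -0.54 in log2 units (limma adjusted p = 0.0046). Prdm1, which encodes Blimp-1 and is repressed by Bach2 and Bcl6, changed by -0.28 from a dim signal of 7.30 (limma adjusted p = 0.0361), and lost its call in each of the 6 fits that left out 1 array (0.0852 to 0.176). The plasma cell markers, 5 of 5 measured, summed to 9617 to 9990 in the wild-type arrays and 6673 to 7181 in the knockout arrays on the linear scale. Xbp1, the brightest of the 5, made up most of this sum, which therefore largely repeats the fall of Xbp1. Of these 5, 3 fell, namely Xbp1, Prdm1 and Jchain (-1.67, limma adjusted p = 0.00182), and Sdc1 and Tnfrsf17 did not pass, at 0.19 and 0.02. The fall of Xbp1, Prdm1 and Jchain lay beside the rise of Irf4 and of Pax5, and its part in the results was not tested.

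Genes reported as targets of the factors were then read from the same fit, leaving the 10 factors themselves out of the counts. These lists too were chosen with earlier results of the same arrays known. Beside their counts, 2.42% of all genes were called higher and 2.01% lower. Of 11 measured genes activated by Pax5, 3 rose, 0 fell and 8 did not pass, with a median log2 change of 0.12. Sdc4, a syndecan of the cell surface, rose by 0.84 ± 0.062 (SE; limma adjusted p = 0.0015), Bst1, the surface antigen BP-3, rose by 0.81 ± 0.054 (adjusted p = 0.00107), and Spib is described above. All 3 kept their call with any 1 array left out. Of 11 measured genes repressed by Pax5, 2 rose, 1 fell and 8 did not pass, with a median of -0.012. This list does not hold Xbp1 or Jchain, which fell as given above, and its counts depend on the genes listed. Flt3, the cytokine receptor of early progenitors, increased from a mean of 7.62 ± 0.12 to 8.90 ± 0.15 (SD, n = 3), or 1.27 in log2 units (limma adjusted p = 0.00192) in the samples in which Pax5 also rose. The wild-type signal of Flt3 was dim, below the array medians, so the size of its change is uncertain. Grap2, a T cell adaptor, fell from 12.36 ± 0.068 to 11.50 ± 0.071 (log2 change -0.86, adjusted p = 0.00148). Lmo2, a stem cell factor, rose by 0.35 (limma adjusted p = 0.0311) and kept its call only without wild-type sample 3 (0.049), with 0.0889 to 0.144 in the other 5 such fits.

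Of 10 measured genes activated by Ebf1 and by the Tcf3 product, 0 rose, 2 fell and 8 did not pass, with a median log2 change of 0.060. The shares over all genes were 2.42% higher and 2.01% lower. Dntt, which adds bases at recombination joints, fell by 0.37 ± 0.049 (SE) on the log2 scale (limma adjusted p = 0.0132). Vpreb2, a surrogate light chain gene, fell by 0.32 ± 0.059 (SE) on the log2 scale (limma adjusted p = 0.045). Dntt kept its call without knockout sample 1 (limma adjusted p = 0.0482) or knockout sample 2 (0.032) and lost it without wild-type samples 1, 2 and 3 (0.0809, 0.0697 and 0.0515) or knockout sample 3 (0.077). Vpreb2 lost its call in all 6 such fits (0.0603 to 0.197). The Vpreb genes are close copies of one another, and the sources used here do not say how far the probes of Vpreb2 also read Vpreb1.

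Of 12 measured genes activated by Foxo1, 2 rose, 0 fell and 10 did not pass, with a median log2 change of 0.15. Irs2, an adaptor of the insulin receptor, increased from a mean of 8.17 ± 0.11 to 9.25 ± 0.059 (SD, n = 3), or 1.08 in log2 units (limma adjusted p = 0.00116), and Txnip is given above. Of 14 measured genes repressed by Bcl6, 5 rose, 1 fell and 8 did not pass, with a median of 0.20. Bcl6 itself, at a dim signal, did not pass the test. Beside the counts of both lists, 2.42% of all genes were called higher and 2.01% lower. Cd44, a hyaluronan receptor, rose by 0.91 ± 0.061 (SE; limma adjusted p = 0.00108), the cytokine feedback gene Cish by 0.80 ± 0.062 (adjusted p = 0.00176), the checkpoint locus Cdkn2a by 0.67 ± 0.059 (adjusted p = 0.00294) and the survival gene Bcl2l1 by 0.63 ± 0.065 (adjusted p = 0.00499). The fifth that rose was Id2, and the one that fell was Prdm1. Cish and Bcl2l1 are also STAT5 targets, so the list does not separate the 2 regulators. Irs2, Cd44, Cish, Cdkn2a and Bcl2l1 kept their call with any 1 array left out, with a highest limma adjusted p of 0.0332.

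**Figure D5:**
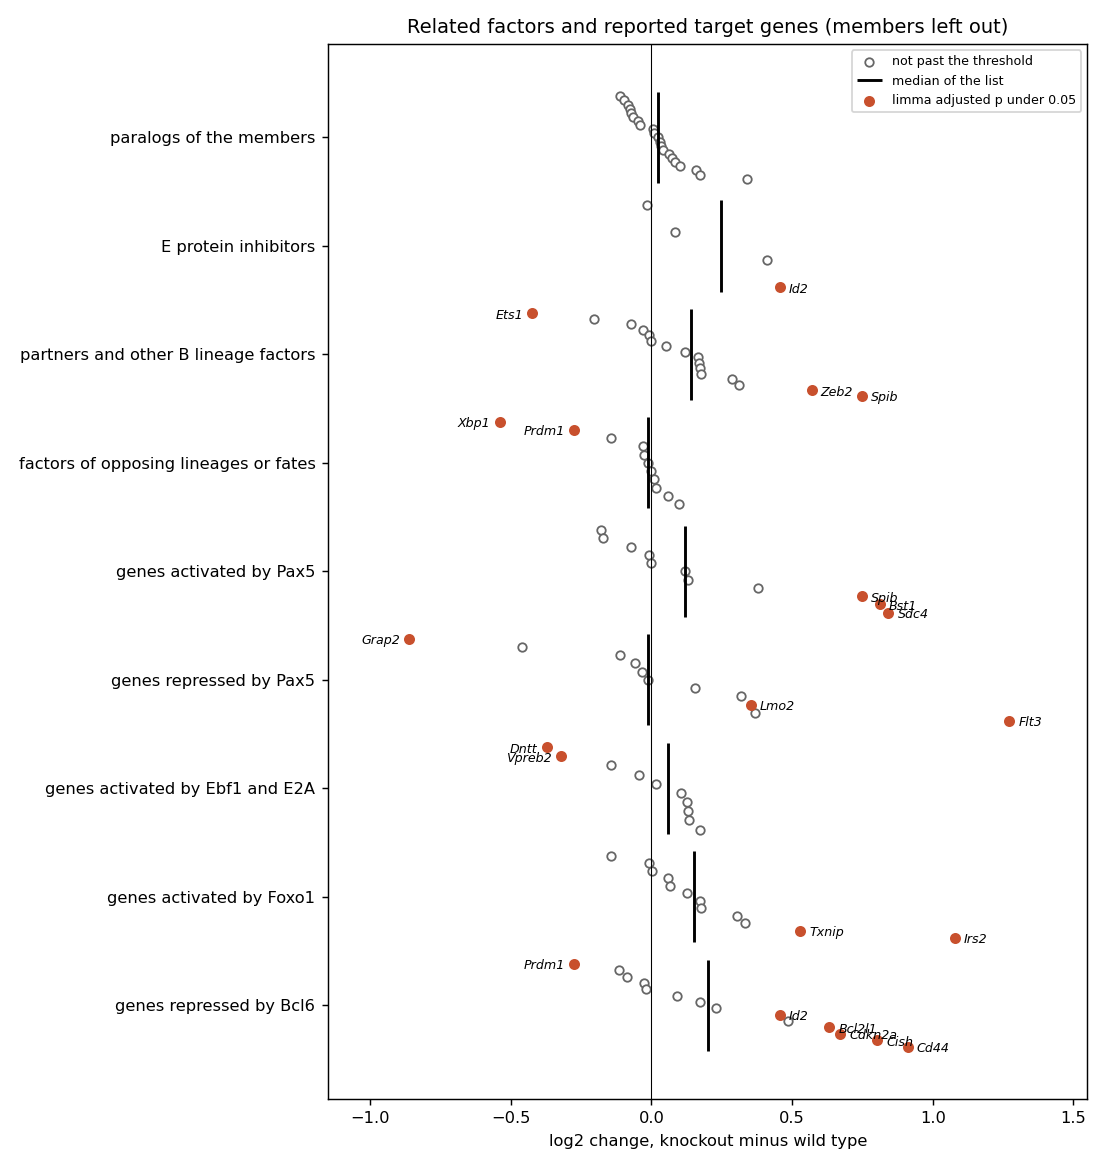
The log2 change from wild type to knockout of each measured gene (points) in 9 lists of related factors and reported targets, the 10 factors left out, with the median of each list as a line and genes of limma adjusted p under 0.05 filled and named. The paralogs cluster around 0 with none filled, where 4.43% of all genes were called. The filled genes of the Pax5-activated and Foxo1-activated lists all lie to the right of 0.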

How the data were processed

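Biotin-labelled total RNA of 6 samples was measured, per the labels' protocols, on Affymetrix arrays of 1 colour. The deposited values are on a log2 scale, read from their range of 2.58 to 14.71. The submitters' processing notes name RMA and Partek 6.5. As usually run, RMA subtracts background, quantile-normalizes and summarises probes, so that differences of dim probe sets are compressed. The deposited values were nonetheless not equal in distribution between arrays. Array medians ran from 7.79 to 7.84 and upper quartiles from 10.11 to 10.24. How the submitters normalized the arrays is not given beyond these names. The sources used here give no filters, detection calls or chip definition, and the number of arrays limits the precision.

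Genotypes come from the sample titles. Of 35556 probe sets, 21789 had 1 gene symbol in the platform annotation table, 1621 had several and 12146 had none listed. Where a gene had several probe sets, the one of highest mean over the 6 arrays stood for it. Knockout was compared with wild type by limma 3.58.1 (R 4.3.3, lmFit and eBayes, no covariate, no filter), with Benjamini-Hochberg adjustment over all probe sets at 0.05. The fit was tested on simulated data. There it called 37% of 100 probe sets shifted by 0.5 on the log2 scale, and 72% of 100 shifted by 1.0. False calls made up 2.68% of all calls. Most shifts of 0.5 were thus missed, so a factor that did not pass cannot be called unchanged from the test alone. An exact permutation test of 3 against 3 cannot go below p = 0.10 and was not used. The members and lists were chosen with earlier results of these data known. Named were the 10 factors, every list gene past the threshold (or the 2 of smallest p where fewer than 2 passed), and for each called factor the 3 genes of closest profile, leaving out predicted, olfactory, vomeronasal, small RNA and immunoglobulin genes. Genes named outside this rule are those of the cell markers, Etv5 and the region of Bcl6, and Id1 and Id4. Correlations of deviations were -0.12, 0.016 and 0.26 for same-numbered samples and ran from -0.35 to 0.31 for differently numbered ones. The same-numbered values lay within that range, and samples were not paired in the main fit. Deviations from the mean of 3 samples depend on one another, so these correlations cannot settle whether the samples were paired. Alternatives included a block for the sample number, other normalizations, probe set filters, variance models, thresholds and each sample left out.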

Additional observations from a re-analysis of the deposited data

How the results depend on the processing

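The number of called factors, 4 of 10, was the same under array weights, quantile and cyclic loess normalization, median centring, single-gene probe sets, the mean of the probe sets of a gene, the filter on dim probe sets and a threshold of 0.10, and it was 5 with a variance trend and robust settings. Each factor has 1 probe set, so single-gene probe sets, the mean of probe sets and the dim filter left the values of the factors unchanged. These settings altered only the variance estimate shared across probe sets and the adjustment. A threshold of 0.10 could not lower the count. The same count under these settings is therefore no sign of stability. The number of called factors was 1 with a threshold of 0.01 and 1 to 3 with 1 sample left out. With the sample number as a block it was 1: Irf4 kept its call (limma adjusted p = 0.0389), and Pax5, Ikzf3 and Irf8 did not (0.0762, 0.115 and 0.146). Over all probe sets the count of 1095 became 544 with the block, 538 with a threshold of 0.01 and 565 to 857 with 1 sample left out. It was 1048 with median centring and rose to between 1294 and 1475 with the filter on dim probe sets (1294), cyclic loess (1351), a variance trend with robust settings (1363), single-gene probe sets (1394), quantile normalization (1398), array weights (1452) and a threshold of 0.10 (1475). The sign of the change reversed, always short of the threshold, for Ebf1 under cyclic loess (0.0070) and quantile normalization (0.0087) and without knockout sample 3 (0.0055), wild-type sample 2 (0.00048) or wild-type sample 3 (0.0033); for Bach2 without knockout sample 2 (-0.0024) or wild-type sample 1 (-0.023); and for Bcl6 without knockout sample 1 (0.0099) or wild-type sample 3 (0.030). With 1 sample left out, the change ranged from -0.011 to 0.0055 for Ebf1, -0.023 to 0.047 for Bach2 and -0.11 to 0.030 for Bcl6. The causes of these shifts were not tested. Of 150 changes of single factors across the alternatives, 123 kept their direction and side of the threshold. The 150 include the settings that left the values of the factors unchanged. The counts of the other 9 lists moved by over 1.5 times in 52 of 153 cases. With the factors that stand in a list counted, they ranged from 0 to 1 for paralogs (0 as reported), 0 to 2 for Id proteins (1), 1 to 2 for opposing factors (2), 0 to 5 for the Ebf1 and Tcf3 targets (3) and 2 to 4 for Foxo1 targets (2). Probe sets could not be called absent, so changes of dim genes such as Prdm1, Bcl6 and Flt3 are uncertain in size.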
